A study of Mus musculus with 6 samples.

Results

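Desmosomes are spot-like junctions that rivet neighbouring epithelial cells together and anchor their keratin filaments. The genes studied here encode their parts: the desmogleins Dsg1a, Dsg2 and Dsg3, the desmocollins Dsc1, Dsc2 and Dsc3, desmoplakin (Dsp), plakoglobin (Jup) and the plakophilins Pkp1 and Pkp3. They were taken by name from a fixed list of 10 and matched to the array's gene symbols ignoring case. Of the 10, 9 were matched, by 10 probes in all, among 17742 genes on the array. Dsc3 had 2 probes and each of the other members 1. Dsg2 was not analysed here.

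RNA came from female BALB/c mice and was hybridised with the dye Cy5 to 6 single-colour arrays. By the labels the tissues are brain, ovary and uterus, each hybridised once without treatment (mock) and once after 7 days of oral SHT, a herbal decoction named Sheng-Hua-Tang, at 200 mg/kg. The sources used here do not give the age of the mice, the number behind each RNA or whether tissues came from the same animals. With 1 array in each of the 6 groups, differences within a labelled tissue have no replicate check, and precision is limited by the number of arrays.

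The desmosome is built in layers. Desmogleins and desmocollins are cadherins that span the membrane and bind those of the next cell. Inside the cell, plakoglobin and the plakophilins link the cadherin tails to desmoplakin, which holds the keratin filaments. Simple epithelia, such as those lining the uterus and covering the ovary, use mainly the broadly expressed cadherins, while Dsg1, Dsg3, Dsc1 and Dsc3 are known from stratified squamous epithelia such as epidermis and vagina. Neurons form no desmosomes of this kind.

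Values are intensities in the scanner's arbitrary units, and levels were compared between arrays within a probe, never between probes. Median intensities ran from 179 to 224. The 95th percentile of 529 olfactory receptor genes, 275 to 541 by array, served as a bound of the background, because most tissues do not use these genes. Folds written with "at least" are lower bounds: either the dimmer array read within that background and its bound replaced the value, or the brighter array read 65000 or more, near the top of the scale. The sizes of folds are relative to the median gene of the 2 arrays compared. Counts of genes at 2-fold or more use the log2 difference as read, without that shift and without the background bound.

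Tissue markers went against the labels of 4 arrays, so every array is named below by its label and no difference is assigned to a tissue or to SHT. The 7 measured neuron and glia markers summed to 108191 and 109130 on the mock brain- and SHT ovary-labelled arrays, and to between 713 and 3667 on the other 4. Ovary markers (8 genes) summed to 93106 and 136242 on the SHT brain- and mock uterus-labelled arrays, against 1262 to 4549 elsewhere. The 10 markers of stratified squamous epithelium summed to 385447 and 246953 on the mock ovary- and SHT uterus-labelled arrays, against 3782 to 7681 elsewhere. The 6 uterus markers were spread more widely, with 97423 on the SHT uterus-labelled array and 53386 on mock ovary. They summed to 52807 on SHT brain, 26525 on mock uterus and 3823 and 3974 on the remaining arrays. Ltf alone gave 62708, 22638, 42062 and 22691 of the sums on the first 4 arrays in that sequence. Hoxa10 read 6642, 2805, 1163 and 324 on them, and Hoxa11, Esr1 and Hand2 had the same order as Hoxa10. Pgr was highest on mock ovary.

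The desmosome genes had their high readings on the mock ovary- and SHT uterus-labelled arrays, the same arrays that carried the squamous markers. There, 9 of 9 and 8 of 9 members read above the background bound. On the SHT brain- and mock uterus-labelled arrays 5 and 6 members did, and on those labelled mock brain and SHT ovary only Dsc3 and Pkp1. The bound itself ran from 275 on SHT brain to 541 on mock brain. The share of all genes above it on each array was not computed. On the log2 scale, with each gene centred on its own mean over the arrays, the members averaged 4.38 ± 1.53 (SD over 9 genes) on the mock ovary-labelled array and 3.05 ± 1.20 on SHT uterus. The averages were -1.07 ± 1.71 on SHT brain, -1.65 ± 0.87 on mock uterus, -2.29 ± 1.31 on mock brain and -2.43 ± 1.27 on SHT ovary. The part that the squamous markers play in these readings was not tested, and in such bulk RNA fewer epithelial cells and less RNA per cell cannot be told apart.

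**Figure D1:**
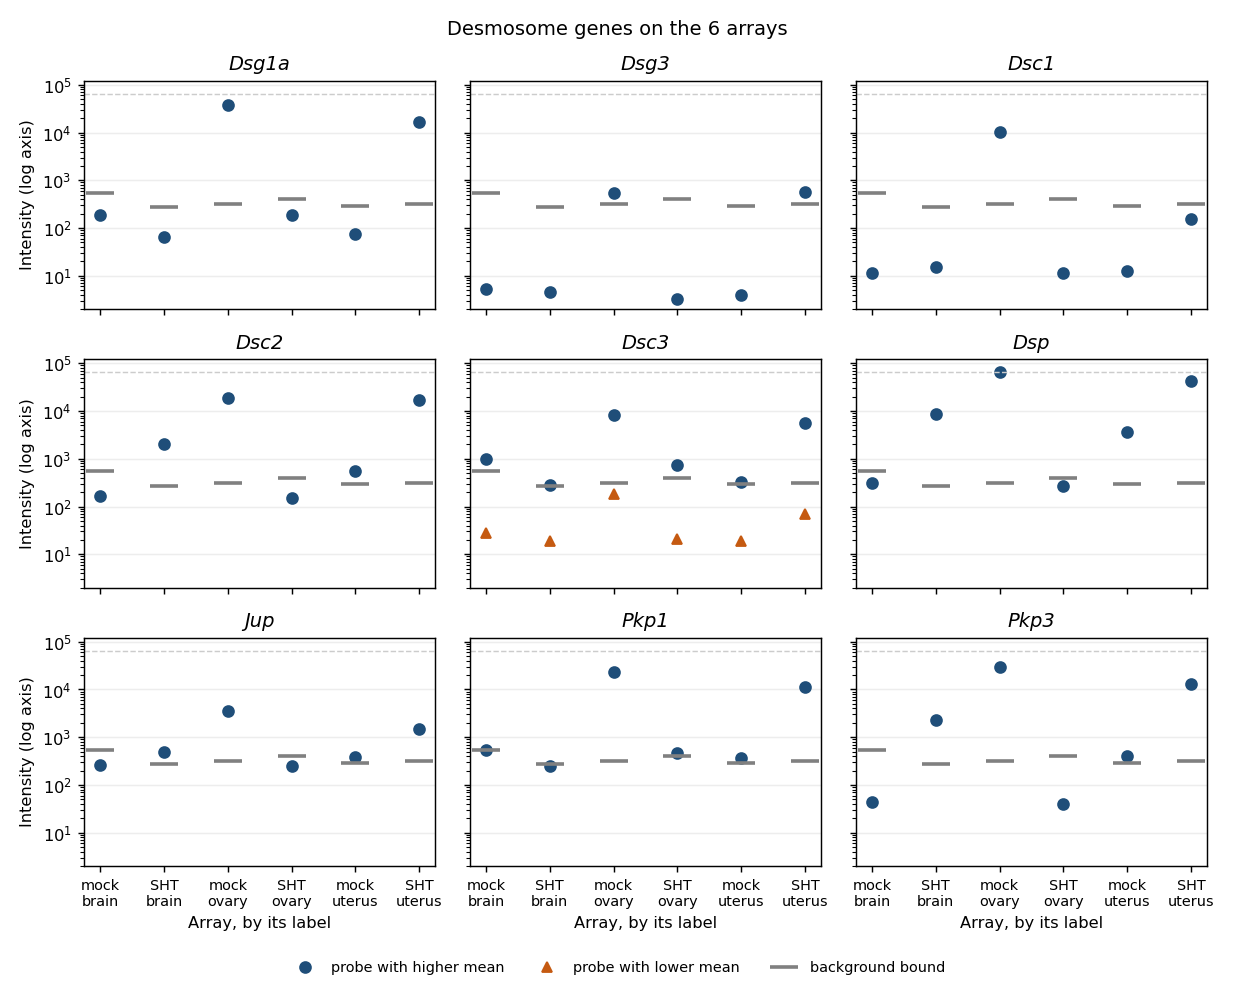
Intensity of each desmosome gene (vertical log axis, arbitrary units) on the 6 arrays, named by their labels (horizontal axis). Each point is 1 probe on 1 array, short grey bars mark the 95th percentile of olfactory receptor genes on that array, and the dashed line marks 65000. Every member is highest on the mock ovary- and SHT uterus-labelled arrays. Dsc2, Dsp, Jup and Pkp3 also stand above the bars on the SHT brain- and mock uterus-labelled arrays, while Dsg1a, Dsg3 and Dsc1 do not.

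Among the desmogleins, Dsg1a, the cadherin of the upper layers of stratified epithelium, read 38367 on the mock ovary-labelled array and 16651 on SHT uterus. On the other arrays, labelled mock brain, then SHT brain, SHT ovary and mock uterus, it read 185, 66.5, 187 and 76.1. All 4 of these lay within background, so Dsg1a was detected on 2 arrays. The near-identical genes Dsg1b and Dsg1c, its neighbours in the genome, were not analysed here, and whether the probe tells the copies apart is not known. Dsg3, a cadherin of the deeper layers, read 538 on the mock ovary-labelled array and 568 on SHT uterus, and 5.33, 4.63, 3.32 and 3.99 on the other 4 in the same sequence. It was thus also above background on the same 2 arrays, by a small margin, and its level hardly differed between them.

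The 3 desmocollins differed in the number of arrays on which they were detected. Dsc1, known from the outermost living layers of epidermis, read 10221 on the mock ovary-labelled array and 155 on SHT uterus, and 11.3, 14.96, 11.7 and 12.7 on those labelled mock brain, then SHT brain, SHT ovary and mock uterus. Only 1 array was above background for it, at least 40.5-fold over the SHT uterus-labelled array. Dsc2, the desmocollin of simple as well as stratified epithelia, read 19155 on the mock ovary-labelled array, 16703 on SHT uterus, 2063 on SHT brain and 553 on mock uterus. It read 162 and 149 on those labelled mock brain and SHT ovary, both within background. Dsc2 was thus detected on 4 arrays, with a near-equal pair at the top and lower readings on the arrays that carried ovary markers.

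Dsc3, a desmocollin of the basal layers, read 8096 on the mock ovary-labelled array and 5612 on SHT uterus. Its other readings were 1009 on mock brain, 725 on SHT ovary, 322 on mock uterus and 286 on SHT brain. Of these 4 arrays, mock uterus and SHT brain were the lower for Dsc3 and the higher for Dsc2. The lower-reading probe of Dsc3 gave 182, 69.6, 28.3, 21.1, 19.2 and 19.4 on the arrays in the same sequence, all within background. Both probes placed the mock ovary- and SHT uterus-labelled arrays on top, with a correlation over the 6 arrays of 0.945 (Pearson, log2). In the RefSeq annotation (GRCm38.p6) the desmocollin and desmoglein genes lie side by side as 1 uninterrupted run of 9 protein-coding genes, from Dsc3 through Dsc2, Dsc1, Dsg1c, Dsg1a, Dsg1b, Dsg4 and Dsg3 to Dsg2. Neighbours in this run did not share 1 profile: Dsc2 and Dsc1 lie next to each other, and Dsc2 was above background on 4 arrays and Dsc1 on 1.

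Desmoplakin, the plakin that ties the junction to keratin, had its highest reading at the top of the intensity scale. Dsp read 65580 on the mock ovary-labelled array, 41552 on SHT uterus, 8681 on SHT brain and 3675 on mock uterus, and 310 and 269 on those labelled mock brain and SHT ovary. The latter 2 lay within background. Plakoglobin, which binds the tails of both kinds of desmosomal cadherin, read 3543, 1517, 494 and 377 on those 4 arrays in the same sequence, and 262 and 245 on the other 2. The last 2 lay within background. Over the 4 arrays above background Jup therefore had the same order as Dsp, and so had Dsc2 and Pkp3.

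The sequences just before the annotated starts of Dsp and Jup, the 2 members for which a RefSeq promoter window was kept here, are shown for comparison (GRCm38.p6, written 5′ to 3′ on the gene's strand). Windows on the chromosome of the desmocollin and desmoglein genes were left out, whether or not the source held them. The Dsp window is chr13:38151044-38151293 on the plus strand and the Jup window chr11:100397840-100398040 on the minus strand, and each ends at the base before the outermost annotated start of the gene. Capitals mark matches, on either strand, to the motifs searched for.
Dsp: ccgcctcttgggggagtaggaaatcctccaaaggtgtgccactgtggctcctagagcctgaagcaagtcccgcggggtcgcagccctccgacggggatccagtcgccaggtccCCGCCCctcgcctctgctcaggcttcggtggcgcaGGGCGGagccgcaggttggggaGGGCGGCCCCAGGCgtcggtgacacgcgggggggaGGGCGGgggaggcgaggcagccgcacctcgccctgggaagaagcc
Jup: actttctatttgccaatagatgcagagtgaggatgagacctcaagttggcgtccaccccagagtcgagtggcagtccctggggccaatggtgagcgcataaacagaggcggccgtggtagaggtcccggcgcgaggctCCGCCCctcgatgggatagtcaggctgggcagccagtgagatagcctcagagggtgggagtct
The Sp1 motif GGGCGG occurred 4 times in the 250 bases of Dsp and 1 time in the 201 bases of Jup. It was present in 32.7% of 32851 RefSeq promoter windows of 250 bases and in 24.8% of windows of 201 bases. The AP-2 motif GCCNNNGGC occurred once in Dsp, where it overlaps an Sp1 match, and not in Jup, against 13.7% and 10.6% of windows of those lengths. Neither window held the AP-1 motif TGANTCA, found in 6.75% and 5.59% of windows, or the GRHL motif AACCGGTT, found in 0.116% and 0.0944%. A match describes letters only, and the absence of a match says nothing about a factor.

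The plakophilins, which gather desmoplakin at the membrane, also differed between themselves. Pkp1, the plakophilin of the upper layers of stratified epithelium, read 23307 on the mock ovary-labelled array and 11396 on SHT uterus. It read 544, 253, 477 and 359 on those labelled mock brain, then SHT brain, SHT ovary and mock uterus, all close to the background bound of their array. Pkp3, found in most epithelia, read 28959 on the mock ovary-labelled array, 12785 on SHT uterus, 2316 on SHT brain and 403 on mock uterus, and 44.3 and 39.0 on mock brain and SHT ovary. Among members, Pkp1 lay closest to Dsg1a across the 6 arrays (Pearson r of 0.998 on the log2 scale) and Pkp3 to Dsp (0.994). Pkp1 and Pkp3 correlated at 0.764. The lowest of the 36 member pairs was Dsc3 with Dsp at 0.583. These correlations describe 6 arrays, rest largely on the same 2 high arrays and carry no test.

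The study's own question within each tissue is what differs after SHT. In the pair labelled brain, Dsp, Pkp3 and Dsc2 were higher and Dsc3 and Pkp1 lower on the SHT array. Of 6 members above the level floor (a mean of the 2 arrays above the median over all probes), 3 were higher and 2 lower by 2-fold or more. The same held for 22.0% (higher) and 24.0% (lower) of all 10746 genes above the floor. Because the floor is a mean, a high reading on 1 array can carry a gene over it. Such a gene can be called higher only on that array. Dsp was at least 17.4-fold higher, Pkp3 at least 4.64-fold and Dsc2 at least 4.14-fold, while Dsc3 was 3.26-fold lower and Pkp1 at least 1.83-fold lower. Pkp1 is counted at 2-fold because its log2 difference as read was -1.11. Jup, also above the floor, differed by 0.92 on the log2 scale as read and so missed 2-fold, while relative to the median gene its difference was 1.04. Once each array is centred on its median, Jup passes it at 1.19 and Pkp1 misses it, which makes 4 members higher and 1 lower. The Jup reading on mock brain lay within background, and with such readings raised to the bound its difference is -0.13. The median over the 9 members was 0.40 on the log2 scale, against -0.12 for the median gene. That median was the value of Dsc1, within background on both arrays, and it turns to -0.98, the difference between the bounds themselves, when readings within background are raised to them. The squamous marker sum was 6934 on the mock array and 4479 on the SHT array of this pair, and the ovary marker sum was 1385 and 93106.

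In the pair labelled ovary every member above the floor was lower on the SHT array. These were 8 of 8, against 21.2% of 10692 genes lower and 25.4% higher. Dsc1, Pkp3, Dsc2 and Dsg1a read 11.7, 39.0, 149 and 187 on the SHT array, below its median of 198. They passed the floor through their mock readings, so for them the direction was set by the floor. Dsp was at least 178-fold lower, Dsg1a at least 104-fold, Pkp3 at least 78.6-fold, Pkp1 53.3-fold and Dsc2 at least 52.0-fold. Dsc1 was at least 27.7-fold lower, Dsc3 12.2-fold and Jup at least 9.61-fold. Dsg3 did not reach the floor and was at least 1.46-fold lower. The median over the 9 members was -7.00, against 0.13 for the median gene, and -5.57 with readings within background raised to the bound. The squamous marker sum was 385447 on the mock array and 7681 on the SHT array.

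In the pair labelled uterus the direction was the opposite, with 7 of 7 members above the floor higher on the SHT array. Among 10765 genes 12.9% were higher and 8.49% lower. Dsg1a read 76.1 on the mock array, below its median of 207, and passed the floor through its SHT reading. Dsg1a was at least 57.1-fold higher, Pkp1 32.1-fold, Pkp3 32.1-fold, Dsc2 30.5-fold, Dsc3 17.6-fold, Dsp 11.4-fold and Jup 4.07-fold. Dsg3 was below the floor and at least 1.95-fold higher, and Dsc1 read within background on both arrays. The median over the 9 members was 4.92, against -0.02 for the median gene, and 4.13 with readings within background raised. Squamous markers summed to 3782 on the mock array and 246953 on the SHT array.

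**Figure D2:**
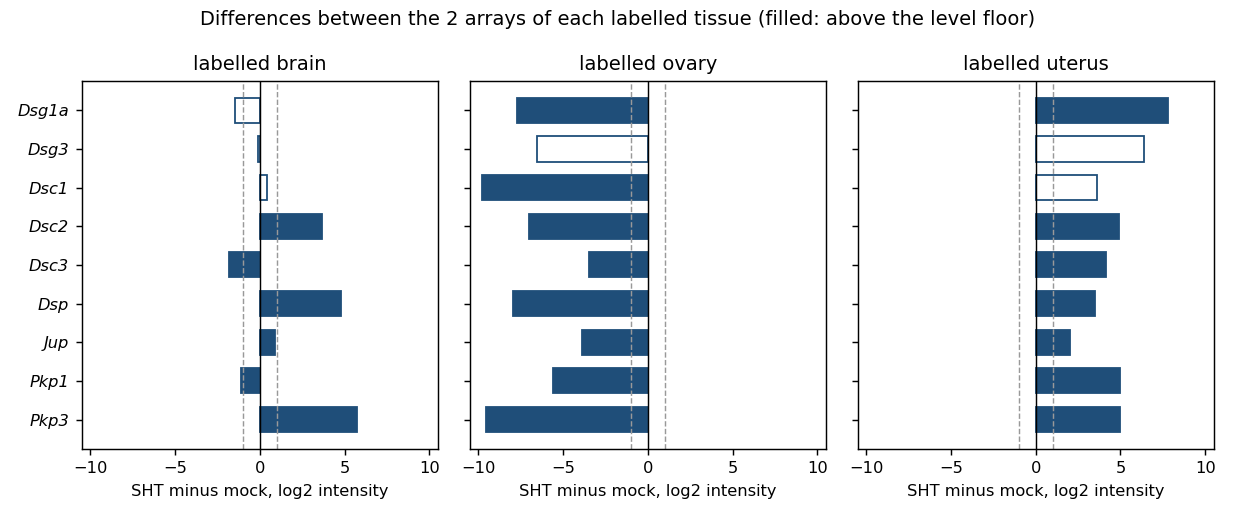
Difference in log2 intensity between the SHT and the mock array (horizontal axis) for each desmosome gene (vertical axis) in the pairs labelled brain, ovary and uterus, 1 array per group. Filled bars are members above the level floor, open bars those below it, and dashed lines mark 2-fold. Filled bars point both ways in the pair labelled brain, all down in that labelled ovary (8 of 8) and all up in that labelled uterus (7 of 7).

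Averaged over the labelled tissues, no member passed the test of SHT against mock. With limma (two-sided, blocked on labelled tissue, adjusted over 10763 genes by Benjamini-Hochberg), 0 of 7 members tested and 0 genes in all (0%) had an adjusted p under 0.05. At an unadjusted p under 0.05 there were 0 members and 4 genes. The average difference was 0.12 ± 2.90 (SE) on the log2 scale for Dsp, -0.46 ± 3.23 for Dsg1a and 0.39 ± 3.56 for Pkp3. These errors measure the spread between 3 pairs of arrays whose labels the markers go against, so the intervals are wide and show neither a change nor its absence.

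Taking all 15 pairs of arrays, without regard to label, showed how the members moved against the rest of the genes. The mock brain- and SHT ovary-labelled arrays differed least: 0 of 4 members above the floor were 2-fold apart, against 0.189% of genes. Between those labelled mock ovary and SHT brain 8 of 8 members were apart, against 21.8% of genes, and between mock ovary and mock uterus 8 of 8, against 32.2%. Likewise 7 of 7 were apart between SHT uterus and SHT brain, against 20.4% of genes. All of these were higher on mock ovary or SHT uterus. The floor limits these counts too, because some members with low readings elsewhere pass it only through those arrays. Against the mock brain-labelled array, 8 of 8 members were apart on mock ovary (47.0% of genes), 7 of 7 on SHT uterus (46.9%) and 3 of 5 on mock uterus (45.9%). Against that labelled SHT ovary, 7 of 7 were apart on SHT uterus (46.9% of genes), 5 of 6 on SHT brain (45.3%) and 3 of 5 on mock uterus (45.7%).

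The only pair in which all 9 members passed the floor joins the mock ovary- and SHT uterus-labelled arrays. Here 5 of 9 were lower by 2-fold or more on SHT uterus (Dsg1a, Dsc1, Jup, Pkp1 and Pkp3) and 0 higher. Of 10690 genes 18.1% were apart, and the balance was the other way, with 3.09% lower (330 genes) against 1607 genes higher. Besides Dsc1, the folds were modest, 2.94-fold for Jup, 2.90-fold for Dsg1a, 2.85-fold for Pkp3 and 2.58-fold for Pkp1. Dsc3 was 1.82-fold lower, Dsc2 1.45-fold and Dsg3 1.19-fold, and Dsp, at the top of the scale, at least 1.99-fold. The median gene of this pair was 0.33 higher on the SHT uterus-labelled array on the log2 scale.

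The arrays labelled SHT brain and mock uterus differed in Dsp, Pkp3 and Dsc2. These 3 of 6 members above the floor were lower by 2-fold or more on mock uterus, against 3.96% of genes, and 0 were higher. Of all genes 7.68% were apart in either direction. Pkp3 was 6.81-fold lower, Dsc2 4.43-fold and Dsp 2.80-fold, and Jup 1.55-fold. Both arrays carried the ovary markers. Of 10 adherens junction genes above the floor, 1 was lower on mock uterus (Cdh1, or E-cadherin, 13364 and 3842) and 1 higher (Nectin1, 604 and 1774). Of 7 filament genes above the floor, 4 were lower (Krt7, Krt8, Krt19 and Des) and 0 higher. Also lower were 4 of 7 hemidesmosome genes, 3 of 8 transcription factors of epithelia and 2 of 3 corneodesmosome genes. The same held for 1 of 5 plakin and envelope genes and 1 of 3 other desmosome genes (Perp), with 0 higher in each of these lists. Of 4 squamous markers 0 were lower and 0 higher, and of 7 ovary markers 0 were lower and 1 higher (Zp3). Uterus markers summed to 52807 and 26525 there, of which Ltf alone gave 42062 and 22691. Of 5 uterus markers above the floor, 4 were lower on mock uterus (Hoxa10, Hoxa11, Pgr and Esr1) and 0 higher. The part of the uterus markers in the difference was not tested.

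**Figure D3:**
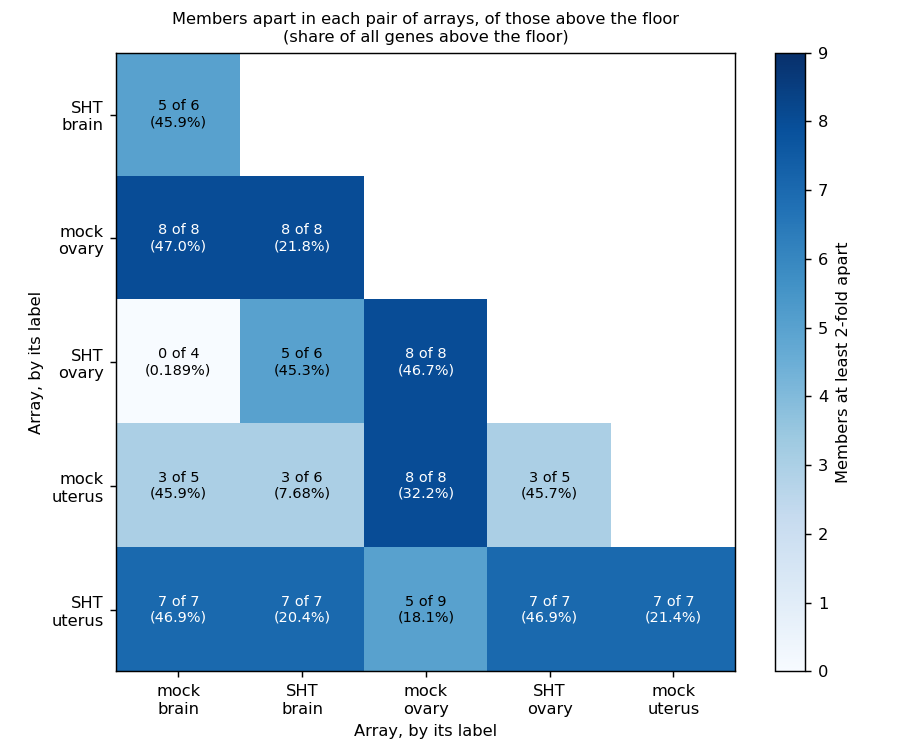
Number of desmosome genes at least 2-fold apart, of those above the level floor, in each of the 15 pairs of arrays (both axes give the array by its label), with the share of all genes apart in brackets. Darker squares hold more members. Rows and columns of the mock ovary- and SHT uterus-labelled arrays are dark, except where these meet each other (5 of 9), and the palest square is mock brain with SHT ovary (0 of 4).

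Other desmosome proteins differed from each other in where they were high. Counts in this and the related lists stand beside the shares over all genes above the floor in the same pairs, 22.0% higher and 24.0% lower (labelled brain), 25.4% and 21.2% (ovary), and 12.9% and 8.49% (uterus). Perp, a membrane protein of desmosomes in stratified epithelium, read 38027 and 27736 on the mock ovary- and SHT uterus-labelled arrays, 4424 and 1119 on SHT brain and mock uterus, and 282 and 275 on mock brain and SHT ovary. Among the candidate genes described below it was the closest to Dsc2 over the 6 arrays (Pearson r of 0.999). Pkp2, the plakophilin of heart and simple epithelia, was highest elsewhere, with 1810 and 1451 on the SHT brain- and mock uterus-labelled arrays against 636 and 692 on mock ovary and SHT uterus. It read 436 and 364 on mock brain and SHT ovary, within background. Pkp4, which also binds classical cadherins, had the narrow range of 3402 to 8809 on the probe used. Its other probe read 614 and 438 on mock brain and SHT ovary and at most 279 elsewhere. The desmoglein of hair, Dsg4, read 28.7 to 34.4, within background on every array. Of the 4 measured genes of this list, 3 were above the floor in the pair labelled brain, 3 in that labelled ovary and 3 in that labelled uterus. Of these, 2 were higher and 0 lower by 2-fold in the first pair, 0 and 1 in the second, and 2 and 1 in the last.

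Dsc1 had company among genes of the cornified layer. Cdsn (corneodesmosin, which reinforces desmosomes as epidermis cornifies) read 9695 on the mock ovary-labelled array and 133 on SHT uterus, and Klk7, a protease that cuts such junctions, 10966 and 41.0. The elsewhere highest readings of these 2 genes were 32.9 and 26.9. Lor, the main protein of the cornified envelope, read 55805 on the mock ovary-labelled array but 522 on SHT uterus, below the 1817 and 2082 on mock brain and SHT ovary. By contrast Spink5, an inhibitor of the same proteases, read 13613 and 4580 on the mock ovary- and SHT uterus-labelled arrays. Klk8, another protease of this family, read 23423 and 1772. Of the 9 genes of the corneodesmosome list, 3 were above the floor in the pair labelled brain, 7 in that labelled ovary and 5 in that labelled uterus. Of these, 2 were higher and 1 lower by 2-fold in the first pair, 0 and 6 in the second, and 4 and 0 in the last.

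Periplakin, a plakin related to desmoplakin, had the same order over the 4 arrays above background. Ppl read 17562 and 9635 on the mock ovary- and SHT uterus-labelled arrays, 1827 and 1334 on SHT brain and mock uterus, and 169 and 125 on mock brain and SHT ovary. Evpl (envoplakin), another plakin, read 22535 and 9361, 1718 and 651, and 242 and 234 in the same sequence. The envelope genes of this list did not share 1 pattern. Ivl (involucrin) read 3138 and 3044 on the mock ovary- and SHT uterus-labelled arrays and at most 69.8 elsewhere, and the cross-linking enzyme Tgm1 12019 and 7537, and at most 234 elsewhere. Scel (sciellin) read 4906 and 5824 there and at most 343 elsewhere. Lor, given above, was high on mock ovary alone, Tgm3 was within background on all 6 arrays, and the probe used for Cnfn was above it on all 6, from 650 to 3439. The other Cnfn probe differed, with 27258 and 10739 on the mock ovary- and SHT uterus-labelled arrays and at most 80.4 elsewhere. The wide detection of Cnfn therefore rests on the choice of probe. Of the 8 genes of this list, 5 were above the floor in the pair labelled brain, 6 in that labelled ovary and 7 in that labelled uterus. Of these, 2 were higher and 2 lower by 2-fold in the first pair, 0 and 6 in the second, and 5 and 0 in the last.

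Filament genes did not share 1 pattern either. Krt5, a basal keratin of stratified epithelium, read 36716 and 29948 on the mock ovary- and SHT uterus-labelled arrays and at most 250 elsewhere, and Krt1, a keratin of the layers above, 25957 and 1813, and at most 95.7 elsewhere. Krt7, a keratin of simple epithelia, read 31008 on SHT brain, 26714 on SHT uterus and 18333 on mock ovary, 2726 on mock uterus, and 746 and 704 on mock brain and SHT ovary. Krt8, also of simple epithelia, read 16008 on the SHT brain-labelled array, 2523 on mock uterus and 979 on SHT uterus, with values below 0 on the other 3. Krt19 read 17260 on the SHT brain-labelled array, 13041 on SHT uterus, 5757 on mock uterus, 3922 on mock ovary and 143 and 119 on mock brain and SHT ovary. Krt18 was within background on all 6 arrays. Of the 10 genes of this list, 7 were above the floor in the pair labelled brain, 8 in that labelled ovary and 9 in that labelled uterus. Of these, 5 were higher and 0 lower by 2-fold in the first pair, 0 and 8 in the second, and 7 and 1 in the last.

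Adherens junction genes, which neurons use as well, included genes high on other arrays. Cdh1 read 18222 on the SHT uterus-labelled array, 13364 on SHT brain, 11760 on mock ovary and 3842 on mock uterus, and 448 and 324 on mock brain and SHT ovary, both within background. Ctnna2, the catenin of neurons, ran the opposite way, with 3940 and 4123 on mock brain and SHT ovary and at most 326 elsewhere. So did Cdh2 (N-cadherin), with 2172 and 1968 on those arrays and between 163 and 967 elsewhere. Of the 10 genes, 10 were above the floor in the pair labelled brain, 10 in that labelled ovary and 9 in that labelled uterus. Of these, 3 were higher and 4 lower by 2-fold in the first pair, 2 and 5 in the second, and 3 and 0 in the last, with medians over the 10 genes of 0.07, -0.75 and 0.42 on the log2 scale.

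Hemidesmosome genes, which fix epithelium to its basement membrane, included both kinds of pattern. Col17a1, a collagen of hemidesmosomes in stratified epithelium, read 9231 and 6844 on the mock ovary- and SHT uterus-labelled arrays and at most 109 elsewhere. Lama3, a laminin chain, read 2366 and 1968 there and 2075 on the SHT brain-labelled array, but 271 on mock uterus. Of 8 measured genes, 7 were above the floor in the pair labelled brain, 8 in that labelled ovary and 8 in that labelled uterus. Of these, 5 were higher and 1 lower by 2-fold in the first pair, 0 and 7 in the second, and 5 and 0 in the last.

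Transcription factors of epithelia did not share 1 pattern. Trp63 (p63, the regulator of stratified epithelium) read 6690 and 8031 on the mock ovary- and SHT uterus-labelled arrays and at most 245 elsewhere, all within background. Elf3, a factor of glandular and simple epithelia, read 11495 on the SHT brain-labelled array, 5968 on SHT uterus, 1144 on mock ovary and 679 on mock uterus, and 29.7 and 25.7 on mock brain and SHT ovary. Klf4 read 15040 and 10211 on mock ovary and SHT uterus, 5997 on SHT brain and 529 on mock uterus. Of 11 genes, 7 were above the floor in the pair labelled brain, 9 in that labelled ovary and 11 in that labelled uterus. Of these, 4 were higher and 0 lower by 2-fold in the first pair, 0 and 9 in the second, and 11 and 0 in the last.

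**Figure D4:**
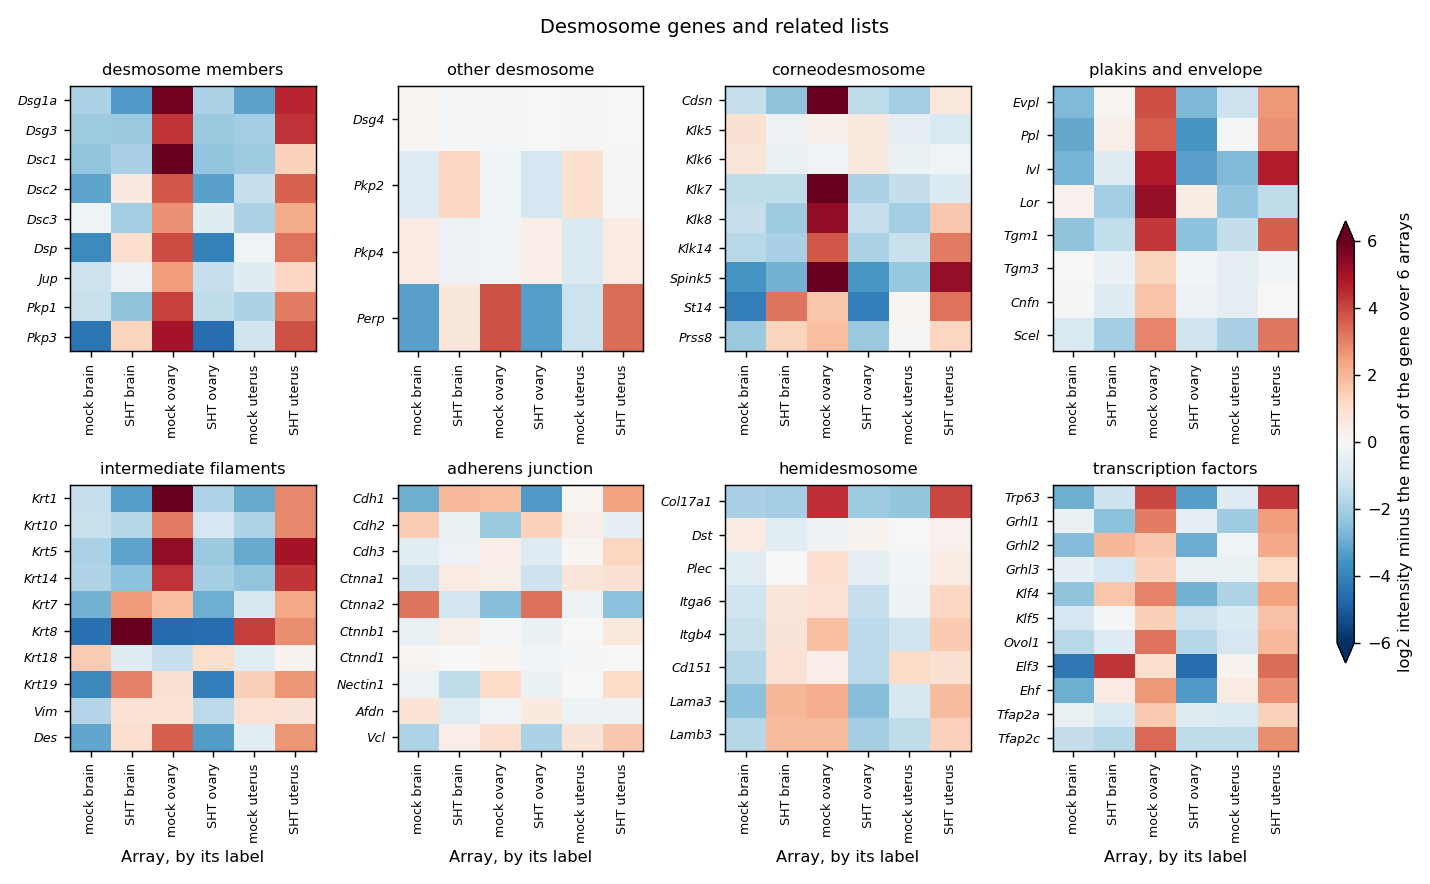
Log2 intensity minus each gene's own mean over the 6 arrays (colour, ending at 6 in either direction) for the desmosome members and 7 related lists, with genes in rows and arrays, by their labels, in columns. The members, Krt5 and Tgm1 are red in the columns labelled mock ovary and SHT uterus, while Lor is red on mock ovary and blue on SHT uterus. Krt8 and Elf3 are darkest red in the column labelled SHT brain, and Ctnna2 is red in those labelled mock brain and SHT ovary.

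The genes most like the members as a group were sought over the 6 arrays by Pearson correlation with the members' mean centred log2 profile. Candidates were 4708 genes with a range of at least 2 log2 units and a highest reading above background. Members and genes with placeholder symbols, such as those ending in Rik, were left out. The 10 closest were Ovol1 (0.998), Fam25c (0.997), Klrg2 (0.996), Tgm1 (0.995), Has2 (0.995), Gltp (0.995), Slc46a2 (0.995), Ascl2 (0.994), Rhbg (0.994) and Nt5e (0.993). Ovol1 read 2397 and 990 on the mock ovary- and SHT uterus-labelled arrays, 146 and 128 on SHT brain and mock uterus, and 79.9 and 76.6 on mock brain and SHT ovary. So many genes share this profile that likeness over 6 arrays sets few apart: 171 of the 4708 reached 0.95. The members themselves ran from 0.877 for Dsc3 to 0.991 for Jup, below all 10 of these genes.

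The nearest gene was also found for each member, under the same limits of range and reading, with placeholder symbols left out and the other members included. It was Trex2 for Dsc1 (Pearson r of 0.997), followed by Krt76 (0.997) and Lce3f (0.995). For Dsg1a the nearest gene was another member, Pkp1 (0.998), and for Pkp1 it was Dsg1a. Dsc3 lay nearest to Grhl1 (0.999), Dsg3 to Psca (0.999), Jup to Cysrt1 (0.999), Dsp to Twf1 (0.999) and Pkp3 to Des (0.999). Each value describes the same 6 arrays and has no test.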

How the data were processed

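Per the labels' protocols, amplified RNA carrying Cy5 was read on 1-colour arrays. The authors' deposited table holds linear intensity for 26423 probes on 6 arrays, and per the submitters' processing notes limma was used, with no version or role given. The sources used here do not state a background correction, scaling or detection flags.

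Here values below each array's 5th percentile of positive values were set to it, then log2 was taken, without scaling between arrays. Of the probes, 20377 had 1 gene symbol, 0 several and 6046 none. Symbols were updated through RefSeq (GRCm38.p6; 18213 current, 2126 synonyms, 38 kept), and the probe with the highest mean stood for a gene. Counts used a 2-fold threshold on the log2 difference as read and the level floor. limma 3.58.1 (R 4.3.3) tested the average over tissues, after a trial on simulated data.

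Members, lists, alternatives and tests were chosen with earlier results of these data known. Named genes were all members, up to 4 genes per list with the largest range, the 10 genes closest to the members' mean profile and the genes nearest to single members. The genes nearest to single members, and further list genes that differ from those named, were added after the data were examined.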

Additional observations from a re-analysis of the deposited data

Results flagged for a closer look

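Differences between the SHT and mock arrays pointed opposite ways, at 2-fold or more and above the level floor on both sides, in 12 cases over 7 members. None of these was tested, since each group held 1 array, and the markers go against 4 of the 6 labels. The share of all genes meeting the same rule was not computed, so the count does not set the members apart. In single pairs 22.0% of genes were higher and 24.0% lower (labelled brain), 25.4% and 21.2% (ovary), and 12.9% and 8.49% (uterus). The values given for the members are the log2 difference in the later-named labelled tissue minus that in the earlier-named. From ovary to uterus they were 15.45 for Dsg1a, 14.52 for Pkp3, 11.92 for Dsc2, 11.43 for Dsp, 10.60 for Pkp1, 7.61 for Dsc3 and 5.86 for Jup. Between brain and ovary they were -15.24 for Pkp3, -12.74 for Dsp and -10.67 for Dsc2. From brain to uterus they were 6.10 for Pkp1 and 5.95 for Dsc3. Many of these rest on readings within background, and that of Dsp on mock ovary lies at the top of the scale. With readings within background raised to the bound, the values from ovary to uterus were 12.39 for Dsg1a, 11.15 for Pkp3, 10.49 for Dsc2, 10.85 for Dsp and 5.15 for Jup, with Pkp1 and Dsc3 as before. Those between brain and ovary were -8.27 for Pkp3, -11.35 for Dsp and -7.50 for Dsc2, and that from brain to uterus 5.97 for Pkp1. Pkp1 in the pair labelled brain is under 2-fold with those readings raised, and also once arrays are centred on their medians.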

How the results depend on the processing

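In the pairs labelled ovary and uterus the counts of members higher or lower kept their direction and stayed within 1.5 times under each alternative run. In the pair labelled brain the count of members lower fell from 2 to 1 with quantile normalization, with each array centred on its median, with probes of a gene averaged, with low values raised to the olfactory receptor bound and at 3-fold, and to 0 with the level floor at the 75th percentile, which also took the count of members higher from 3 to 1. Quantile normalization and centring each took the count of members higher from 3 to 4, by adding Jup. Raising low values moved the members' medians from 0.40 to -0.98 (labelled brain, a change of sign), from -7.00 to -5.57 (ovary) and from 4.92 to 4.13 (uterus). Of 108 recomputed differences of single members, 17 moved by over 1.5-fold, 15 of them when low values were raised, and 0 of those at 2-fold or more changed sign. The limma count of members stayed at 0 under all its alternatives, and leaving out 1 labelled pair at a time gave 0 to 0. At an unadjusted limma p under 0.05 it was 3 members without the pair labelled ovary. In that run 461 of 10763 genes passed the same limit, against 4 genes with all pairs. Over all genes the share higher among those called was 47.8% (brain), 54.5% (ovary) and 60.3% (uterus), and 59.4%, 49.2% and 54.0% with arrays centred. The count over the 15 pairs, 84 member differences, was recomputed after the data were seen and stayed within 1.5 times. Leaving out the 4 arrays whose markers go against their labels leaves no labelled pair, so no count could be given. The labels carry no replicate numbers, and the limma test paired arrays by labelled tissue; without that block it also called 0 members. Where an array read within background, signal over background sets only a lower bound on a difference.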
